A study of Mus musculus with 6 samples.

Results

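The Hox genes of primary mouse embryonic fibroblasts were described across 3 genotypes at exon 2 of Cas, the docking protein p130Cas encoded by Bcar1. Fibroblasts were cultured from B6 embryos at 12.5 days post coitum (dpc) out of crosses between Cas exon 2+/∆ mice, with the head and inner organs removed for genotyping. In all, 6 arrays, 2 per genotype, came from Cas exon 2+/+ (wild type), Cas exon 2+/∆ (heterozygote) and Cas exon 2∆/∆ (homozygote) cells, with 2 embryos for each genotype. The labels give the strain for 5 of the 6 arrays (not for wild type 1), and they name no treatment. p-values measure the spread between these cultures. Of 36 Hox genes listed, 33 had at least 1 probe set (a group of short probes for a transcript) annotated to that gene alone, 48 probe sets in all of the 45101 on the array. Hoxa6, Hoxc11 and Hoxc12 had none and were not analysed here.

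Hox genes encode homeodomain transcription factors that give cells their position along the body. In mammals they lie in 4 clusters, a to d, and the corresponding genes of different clusters form paralogue groups. Genes of low group number are switched on towards the hindbrain and neck, those of middle number in the trunk, and those of high number in the lumbar and sacral body, the tail and the limbs. Fibroblasts keep much of the Hox pattern of their site of origin in culture, and a culture from an embryo without head and inner organs can hold cells of several positions. Here groups 1 to 3 are called anterior, 4 to 8 central and 9 to 13 posterior.

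Of 10 tested central genes, 8 were highest in both wild-type cultures, among them all 4 of cluster c, against 7.83% of all tested genes. The count was chosen with the values known. The 12 posterior genes had median log2 differences from wild type of -0.11 in heterozygotes and 0.10 in homozygotes, but those of group 9 alone had -0.93 and -0.48. The 8 genes of groups 10 to 13, a division made after the values were seen, had medians of 0.01 and 0.21, with 4 higher and 4 lower in heterozygotes (-0.62 to 0.58). The median difference of the 10 central genes from wild type was -1.35 in heterozygotes and -0.96 in homozygotes (-0.56 without homozygote 1). The planned summary by position set homozygotes against the mean of wild type and heterozygotes. There the central median was -0.23, and its sign turned with single arrays. Hoxc8, a gene of thoracic identity, was 3.55-fold lower in heterozygotes and 2.26-fold lower in homozygotes than in wild type. With 1 array left out its log2 difference was -2.44 to -1.23 in heterozygotes and -1.57 to -0.78 in homozygotes. No Hox gene passed the test after adjustment in any comparison, with 2 arrays per genotype (limma, 0 of 36 Hox probe sets and 0% of 22519 probe sets).

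Of the 33 genes, 26 had a probe set in the upper 50% of the array by mean log2 intensity and were tested. These were 4 of 7 anterior, 10 of 12 central and 12 of 14 posterior genes. By cluster they were 8 of 9 genes in a, 6 of 9 in b, 6 of 7 in c and 6 of 8 in d. The genes below the filter were Hoxa4, Hoxb1, Hoxb7, Hoxb13, Hoxc13, Hoxd1 and Hoxd3. The filter is no call of presence or absence, and signals of different probe sets were not set against each other. Genes above the filter thus came from every group from 2 to 13. With only the upper 25% of probe sets kept, 8 Hox genes passed.

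**Figure D1:**
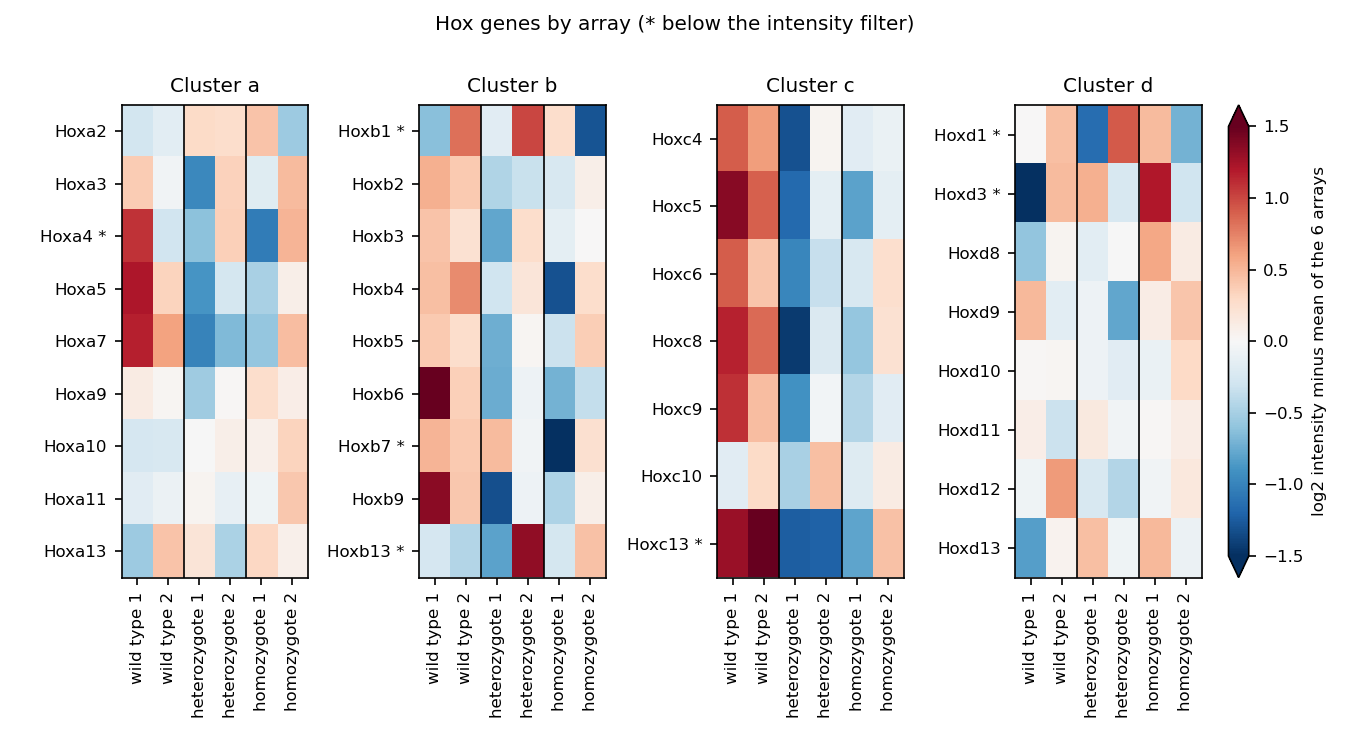
Each square is the log2 intensity of a Hox gene on 1 array minus the mean of that gene over the 6 arrays, by cluster (panels) and paralogue group (rows). Rows from Hoxc4 to Hoxc9 are red in both wild-type columns and bluest in heterozygote 1, while Hoxd10 and Hoxd11 range over 0.48 and 0.46 log2 units.

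The promoters of 5 genes are shown because they stand for both behaviours: Hoxc4, Hoxa5 and Hoxa7 were highest in the wild type, and Hoxa11 and Hoxd13 were not. Sequences are the 250 bases before the start site, 5′ to 3′ on the gene's strand, from RefSeq on GRCm38.p6, which held an entry for 20 of the 36 genes. Capitals mark matches, on either strand, to TTTATG (a motif of CDX factors, which switch on trunk Hox genes), TGATNNAT (bound by PBX with HOX proteins), AGGTCA repeated after a gap of 5 bases (a retinoic acid receptor site) or TATAAA (the TATA motif).
Hoxc4, chr15:103034145-103034394, plus strand: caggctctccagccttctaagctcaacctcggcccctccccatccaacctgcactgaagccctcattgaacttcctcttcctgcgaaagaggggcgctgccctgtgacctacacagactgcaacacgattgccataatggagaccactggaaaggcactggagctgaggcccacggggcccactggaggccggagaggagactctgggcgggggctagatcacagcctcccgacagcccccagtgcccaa
Hoxa5, chr6:52204588-52204837, minus strand: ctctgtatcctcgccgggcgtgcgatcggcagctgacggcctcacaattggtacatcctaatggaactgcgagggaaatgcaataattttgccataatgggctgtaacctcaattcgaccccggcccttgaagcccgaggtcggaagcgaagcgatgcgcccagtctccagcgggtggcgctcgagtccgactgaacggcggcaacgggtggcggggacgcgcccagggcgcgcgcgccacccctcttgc
Hoxa7, chr6:52218574-52218823, minus strand: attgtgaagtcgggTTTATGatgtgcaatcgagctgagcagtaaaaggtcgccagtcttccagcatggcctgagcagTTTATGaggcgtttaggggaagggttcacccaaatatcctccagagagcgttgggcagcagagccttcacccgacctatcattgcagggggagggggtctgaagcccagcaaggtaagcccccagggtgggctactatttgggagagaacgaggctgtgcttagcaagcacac
Hoxa11, chr6:52245811-52246060, minus strand: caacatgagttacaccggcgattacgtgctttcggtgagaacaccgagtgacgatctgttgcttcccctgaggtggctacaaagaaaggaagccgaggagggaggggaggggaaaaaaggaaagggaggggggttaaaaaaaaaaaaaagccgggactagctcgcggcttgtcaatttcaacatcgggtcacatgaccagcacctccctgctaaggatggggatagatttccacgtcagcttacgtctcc
Hoxd13, chr2:74667975-74668224, plus strand: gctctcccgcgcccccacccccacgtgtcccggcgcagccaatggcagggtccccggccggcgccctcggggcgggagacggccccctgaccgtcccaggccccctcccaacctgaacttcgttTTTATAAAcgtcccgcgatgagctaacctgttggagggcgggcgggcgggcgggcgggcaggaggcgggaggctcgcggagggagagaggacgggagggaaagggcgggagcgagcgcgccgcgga
The Hoxa7 window held 2 CDX motifs and the Hoxd13 window overlapping TATA matches on both strands, and the other 3 windows held none of the 4 motifs. A CDX motif was found in 3 of 22 Hox windows and in 10.8% of all 32851 promoter windows of this length, a PBX-HOX motif in 3 of 22 and 7.68%, a TATA motif in 2 of 22 and 12.4%, and the retinoic acid receptor site in 0 of 22 and 0.00913%. Hox windows had a median of 13 CG pairs, against 6 in all windows. A match is a run of letters and no measurement of binding.

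In cluster c, Hoxc4, which is active from the neck downward, had log2 intensities of 6.50 and 6.22 in the wild type, 4.29 and 5.64 in the heterozygotes, and 5.43 and 5.49 in homozygotes. Hoxc5, its neighbour, was at 7.71 and 7.24, at 5.17 and 6.19, and at 5.54 and 6.19. Hoxc6, a gene of the upper thorax, was at 8.29 and 7.81, at 6.41 and 7.04, and at 7.15 and 7.64. In all 3 genes both wild-type arrays lay above the other 4 and heterozygote 1 was the lowest array, and for Hoxc6 both heterozygote arrays lay below the other 4.

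Hoxc8 was at 8.95 and 8.64 in the wild type, 6.36 and 7.57 in the heterozygotes, and 7.22 and 8.02 in homozygotes. Hoxc9, which acts in the thoracic body and in motor neurons, was at 7.34 and 6.71, at 5.33 and 6.19, and at 5.80 and 6.07. Hoxc10, a lumbar gene of the same cluster, was at 6.39 and 6.85, at 6.08 and 7.01, and at 6.36 and 6.68, so its genotypes overlapped. For the 5 genes from Hoxc4 to Hoxc9 wild type 1 was the highest array and heterozygote 1 the lowest, each time.

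**Figure D2:**
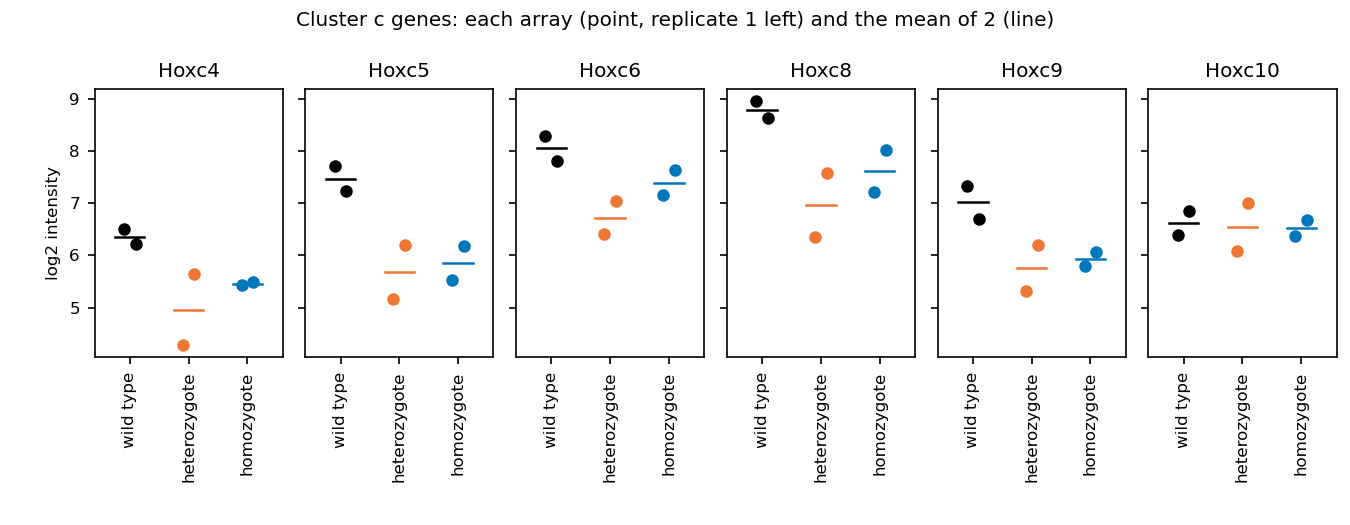
Points are the log2 intensity of each of the 6 arrays for 6 genes of cluster c, with a line at the mean of the 2 arrays of a genotype. From Hoxc4 to Hoxc9 both wild-type points lie above all others, with Hoxc8 at 8.95 and 8.64 against 8.02 at most, and for Hoxc10 the genotypes overlap.

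Against wild type, heterozygotes differed by -1.79 (SE 0.42) on the log2 scale for Hoxc5, -1.83 (SE 0.47) for Hoxc8, -1.40 (SE 0.44) for Hoxc4, -1.33 (SE 0.33) for Hoxc6 and -1.26 (SE 0.37) for Hoxc9 (limma adjusted p = 0.838 for each). Homozygotes differed by -1.61 (SE 0.42) for Hoxc5, -1.18 (SE 0.47) for Hoxc8, -0.90 (SE 0.44) for Hoxc4, -0.66 (SE 0.33) for Hoxc6 and -1.09 (SE 0.37) for Hoxc9 (limma adjusted p = 0.973 for each). Both comparisons share the wild-type arrays. The Hoxc6 probe set used for these values may match several transcripts, by the suffix of its name. Without heterozygote 1 the heterozygote difference was -0.73 for Hoxc4 and -0.83 for Hoxc9, and without homozygote 1 the homozygote difference was -0.78 for Hoxc8 and -0.42 for Hoxc6. Without wild type 1 that of Hoxc6 was -0.41. All 3 tested probe sets of Hoxc6 and both of Hoxc5 had negative differences in both genotypes, with a range from -0.95 to -1.64 for Hoxc6 and from -1.79 to -2.68 for Hoxc5 in heterozygotes.

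In cluster a, 2 genes were likewise highest in wild type. Hoxa5, which patterns the neck, upper thorax and lung, was at 8.77 and 7.90 in the wild type, 6.67 and 7.29 in the heterozygotes, and 7.08 and 7.65 in homozygotes. Hoxa7, a thoracic gene, was at 7.20 and 6.63, at 5.03 and 5.37, and at 5.45 and 6.49. Both wild-type arrays were above the others in both genes, by a narrow margin for Hoxa7, and both heterozygote arrays of Hoxa7 were below the other 4. Heterozygotes differed from wild type by -1.35 (SE 0.40) for Hoxa5 and -1.71 (SE 0.40) for Hoxa7 (limma adjusted p = 0.838 for each), and homozygotes by -0.97 (SE 0.40) and -0.94 (SE 0.40) (limma adjusted p = 0.973 for each). The other tested probe set of Hoxa5 gave smaller differences, -0.54 in heterozygotes and -0.60 in homozygotes. On the probe set used above, the homozygote difference of Hoxa5 was -0.53 without wild type 1. That of Hoxa7 was -0.42 without homozygote 1 and -1.46 without homozygote 2.

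In cluster b, Hoxb6, a gene of the thoracic trunk and its lateral mesoderm, was at 7.62 and 6.44 in the wild type, 5.35 and 6.01 in the heterozygotes, and 5.37 and 5.73 in homozygotes. Hoxb9, which patterns the thoracic ribs, was at 7.18 and 6.23, at 4.51 and 5.75, and at 5.37 and 5.92. Hoxb4, a gene of the neck and of blood stem cells, was at 5.99 and 6.25, at 5.24 and 5.72, and at 4.23 and 5.81. All 3 were highest in the wild-type arrays, and homozygote 1 was the lowest array for Hoxb4. The other tested probe set of Hoxb4 did not show this order. On it homozygote 2, at 5.09, lay above the wild type, at 4.98 and 5.03, and heterozygote 1 was lowest, at 3.79. Its differences from wild type were -0.82 in heterozygotes and -0.36 in homozygotes.

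Hoxb2, an anterior gene of hindbrain segments, was at 7.57 and 7.43 in the wild type, 6.59 and 6.71 in the heterozygotes, and 6.80 and 7.13 in homozygotes, with both wild-type arrays above and both heterozygote arrays below the rest. Heterozygotes differed from wild type by -1.36 (SE 0.44) for Hoxb6, -1.58 (SE 0.51) for Hoxb9 and -0.85 (SE 0.23) for Hoxb2 (limma adjusted p = 0.838 for each), and by -0.64 (SE 0.51) for Hoxb4 (limma adjusted p = 0.855). Homozygotes differed by -1.48 (SE 0.44), -1.06 (SE 0.51), -0.54 (SE 0.23) and -1.10 (SE 0.51) in the same order of genes (limma adjusted p = 0.973 for each). Single arrays moved these values. Without wild type 1 Hoxb6 was at -0.76 in heterozygotes and -0.88 in homozygotes, and Hoxb9 at -0.58 in homozygotes. Without heterozygote 1 the heterozygote differences of Hoxb9 and Hoxb4 were -0.96 and -0.41. Without homozygote 1 the homozygote difference of Hoxb4 was -0.32, and without homozygote 2 it was -1.88.

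Hoxb5, of the same trunk positions, showed overlapping genotypes, at 5.89 and 5.75 in the wild type, 4.76 and 5.53 in the heterozygotes, and 5.17 and 5.86 in homozygotes. Hoxb3, a gene of the hindbrain and pharynx, was at 7.57 and 7.37, at 6.36 and 7.40, and at 6.99 and 7.14. Hoxa3, which patterns the pharyngeal arches and thymus, was at 6.23 and 5.80, at 4.88 and 6.19, and at 5.67 and 6.33. Each of the 3 had its lowest value in heterozygote 1, with overlapping genotypes. Hoxa2, which sets the identity of a pharyngeal arch, lay between 4.18 and 5.15 and was lowest in homozygote 2.

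In cluster d, 0 of 6 tested genes had both wild-type arrays above the others, a count near the 7.83% of all tested genes. Hoxd8, its trunk gene, was at 6.64 and 7.28 in the wild type, 7.08 and 7.22 in the heterozygotes, and 7.82 and 7.36 in homozygotes, and was the 1 tested Hox gene with both homozygote arrays above the other 4 (3.16% of tested genes). Hoxd9, of the lumbosacral body and upper limb, was at 5.91 and 5.27, at 5.35 and 4.64, and at 5.53 and 5.83. Hoxd13, which shapes the digits and the tail end, was at 8.67 and 9.56, at 9.95 and 9.43, and at 9.99 and 9.41. Hoxd13 was lowest in wild type 1, and the other 5 arrays lay within 9.41 to 9.99.

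Hoxd10 and Hoxd11, of the lumbosacral body and the limb, had ranges of 0.48 and 0.46 over the 6 arrays, against a median range of 0.72 for all 11373 tested genes. Hoxd12, a limb gene, lay between 4.68 and 5.75, with both heterozygote arrays lowest, at 4.88 and 4.68. In cluster a, Hoxa10, a lumbar gene that limits rib formation, was at 6.53 and 6.54 in the wild type, 6.77 and 6.87 in the heterozygotes, and 6.86 and 7.11 in homozygotes. By the probe set used for each gene, it was the 1 tested Hox gene with both wild-type arrays below the other 4 (7.08% of tested genes). Its differences were 0.29 (SE 0.22) in heterozygotes (limma adjusted p = 0.850) and 0.45 (SE 0.22) in homozygotes (limma adjusted p = 0.973). With no further normalization of the deposited values the heterozygote difference of Hoxa10 was 0.47. Another Hoxa10 probe set, dim and not tested, went the other way. It was at 4.10 and 3.78 in the wild type, 3.56 and 3.35 in the heterozygotes, and 2.32 and 1.54 in homozygotes. The other tested probe set of Hoxd8 also had both wild-type arrays below the other 4, at 5.87 and 5.79. Hoxa11, of the sacrum and the middle limb, had a range of 0.58, and Hoxa13, of the hand, foot and tail, lay between 4.33 and 5.31. Hoxa9 was at 7.81 and 7.71, at 7.15 and 7.70, and at 7.95 and 7.79, with both heterozygote arrays lowest by a margin of 0.01 for heterozygote 2.

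By paralogue group, the median difference of heterozygotes from wild type over tested genes was -0.18 in group 2, -0.53 in group 3, -1.02 in group 4, -1.35 in group 5, -1.34 in group 6, -1.71 in group 7, -0.82 in group 8 and -0.93 in group 9. It was -0.07 in group 10, 0.12 in group 11, -0.62 in group 12 and 0.25 in group 13. Groups 7 and 12 held 1 tested gene each and no group held more than 4. For homozygotes the medians from group 4 to group 9 lay between -1.07 and -0.27, and from group 10 to group 13 between -0.23 and 0.42. The step between groups 9 and 10 was not tested.

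**Figure D3:**
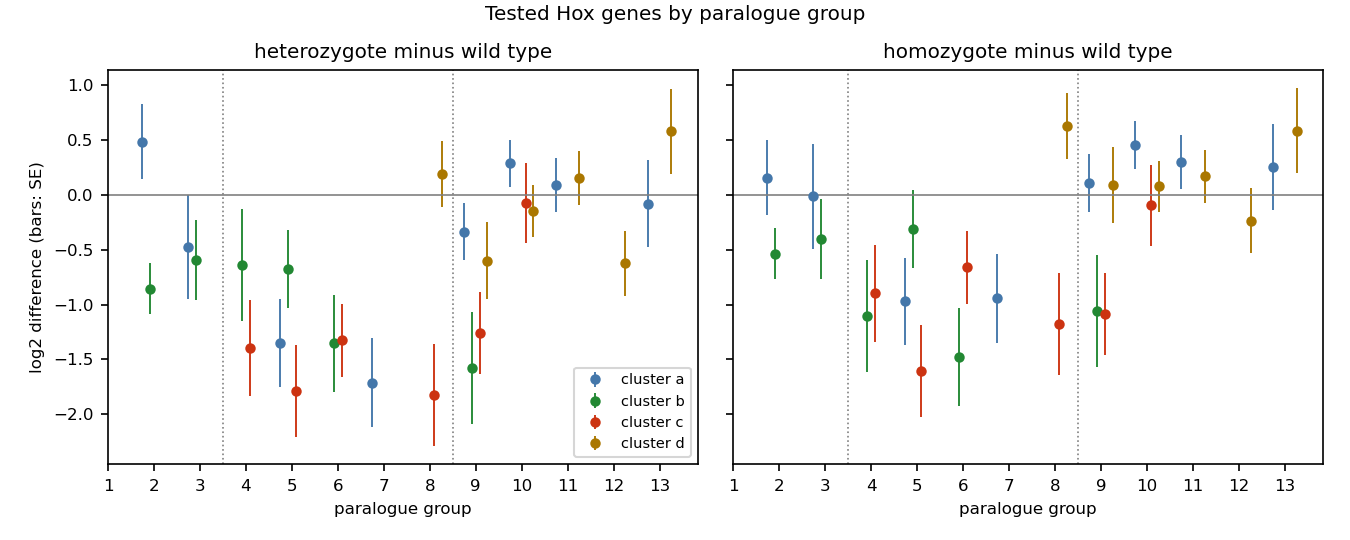
Points are log2 differences from wild type of the 26 tested Hox genes, with bars for the SE, against paralogue group and coloured by cluster, with dotted lines between anterior, central and posterior groups. In heterozygotes the genes of clusters a, b and c in groups 4 to 9 lie between -0.33 and -1.83, and genes of groups 10 to 13 between -0.62 and 0.58.

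Both wild-type arrays lay above the other 4 for 11 of 26 tested Hox genes, where 7.83% of all tested genes did so. They were 8 of 10 central genes (Hoxa5, Hoxa7, Hoxb4, Hoxb6, Hoxc4, Hoxc5, Hoxc6 and Hoxc8), 2 of 12 posterior genes (Hoxb9 and Hoxc9) and 1 of 4 anterior genes (Hoxb2). Hoxb4 met the rule on its brighter tested probe set only. Over all 33 measured genes, with no filter, the count was 12 against 7.96% of measured genes. The added gene, Hoxc13, a gene of hair and nails and the last of its cluster, was dim, at 4.47 and 4.68 in the wild type, 1.94 and 1.96 in the heterozygotes, and 2.38 and 3.62 in homozygotes. The count of genes highest in wild type was chosen after its values were seen, and its genes are not independent of each other. Both heterozygote arrays lay below the other 4 for 5 of 26 tested genes (4.28% of tested genes) and 6 of 33 measured genes (5.44%), and above them for 0 (5.2% and 5.4%). Both homozygote arrays lay above for 1 gene (3.16% and 4.09%) and below for 0 (3.61% and 4.94%), and both wild-type arrays below for 1 (7.08% and 6.72%).

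Heterozygotes were lower than wild type at an unadjusted limma p under 0.05 for 10 of 26 tested Hox genes, against 1.95% of tested genes, and higher for 0, against 2.37%. The smallest of the 10 limma p-values was 0.00469, for Hoxc5. These genes are not independent of each other: the 5 from Hoxc4 to Hoxc9 shared their highest and their lowest array. Of the 48 probe sets, 36 were tested, and 13 of them reached this unadjusted level, all lower (2.42% of tested probe sets lower and 2.85% higher). That count was 5 without heterozygote 1 and 7 without wild type 1. For homozygotes it was 6 of 36, all lower (1.84% of probe sets lower and 1.96% higher), with 1 without homozygote 1, 2 without wild type 1, 10 without wild type 2 and 9 without homozygote 2, of the 34 to 36 Hox probe sets then tested. Homozygotes were lower than wild type at this level for 5 of 26 genes, against 1.62% of tested genes, and higher for 0, against 1.66%. In both comparisons 0 Hox probe sets were called after Benjamini-Hochberg adjustment. Of the 9 genes with several tested probe sets, all probe sets of a gene had 1 direction in each of these comparisons.

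The study compared homozygotes with wild type and heterozygotes, and in this comparison Hox genes as a group had a median near 0. The median over 26 genes was -0.03, against -0.01 over all tested genes, and 13 genes were higher and 13 lower. At an unadjusted limma p under 0.05 the count was 0 of 26 in each direction (1.1% of tested genes higher and 1.09% lower), as it was for 0 of 36 probe sets (1.22% higher and 1.27% lower). The medians were -0.10 for anterior, -0.23 for central and 0.20 for posterior genes. The central median was -0.59 without homozygote 2, 0.017 without heterozygote 2 and 0.07 without homozygote 1, so its sign turned with single arrays. The anterior median also turned, to 0.039 without heterozygote 2 and 0.011 without homozygote 1.

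Among the larger values of this comparison were Hoxb6 at -0.80 (SE 0.39), Hoxb4 at -0.78 (SE 0.44), Hoxc5 at -0.71 (SE 0.36) and Hoxc9 at -0.46 (SE 0.32). On the other side were Hoxd8 at 0.53 (SE 0.26), Hoxd9 at 0.39 (SE 0.30), Hoxa10 at 0.31 (SE 0.19) and Hoxd13 at 0.30 (SE 0.34). The limma adjusted p was 1 for each of these genes. Leaving out homozygote 1 gave 0.0048 for Hoxb4, -0.40 for Hoxc5, 0.31 for Hoxd8 and 0.01 for Hoxd13. Leaving out homozygote 2 gave -1.56 for Hoxb4, 0.18 for Hoxa10, 0.24 for Hoxd9 and 0.58 for Hoxd13. Leaving out wild type 1 gave -0.50 for Hoxb6, -0.30 for Hoxc9 and 0.07 for Hoxd13, and leaving out wild type 2 gave 0.23 for Hoxd9 and 0.52 for Hoxd13. Leaving out heterozygote 2 gave -0.46 for Hoxc5, -0.24 for Hoxc9, 0.21 for Hoxd9 and 0.17 for Hoxd13. All 6 tested genes of cluster d had positive differences (median 0.22), and 5 of 6 of cluster c negative ones (median -0.23). Against heterozygotes alone, 22 of 26 Hox genes had positive differences (median 0.33), and 0 reached an unadjusted p under 0.05 in either direction (0.994% of tested genes higher and 0.95% lower). Of the Hox probe sets, 0 of 36 did so, but 6 of 35 without heterozygote 2 and 4 of 36 without homozygote 1.

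The cultures of a genotype differed among themselves. Wild type 1 was above wild type 2 for 8 of 10 central genes (median difference 0.39). Heterozygote 2 was above heterozygote 1 for 10 of 10 (0.65) and homozygote 2 above homozygote 1 for 9 of 10 (0.61). Relative to the mean of the 6 arrays, the median of the central genes was 1.03 and 0.51 in the wild type, -0.93 and -0.11 in the heterozygotes, and -0.53 and 0.18 in homozygotes. The median of the posterior genes stayed within -0.07 to 0.11 on every array. Single posterior genes moved more, with a median range of 0.96 over the 6 arrays (2.67 for Hoxb9 and 0.46 for Hoxd11). The SD of the central median within a genotype was 0.49.

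**Figure D4:**
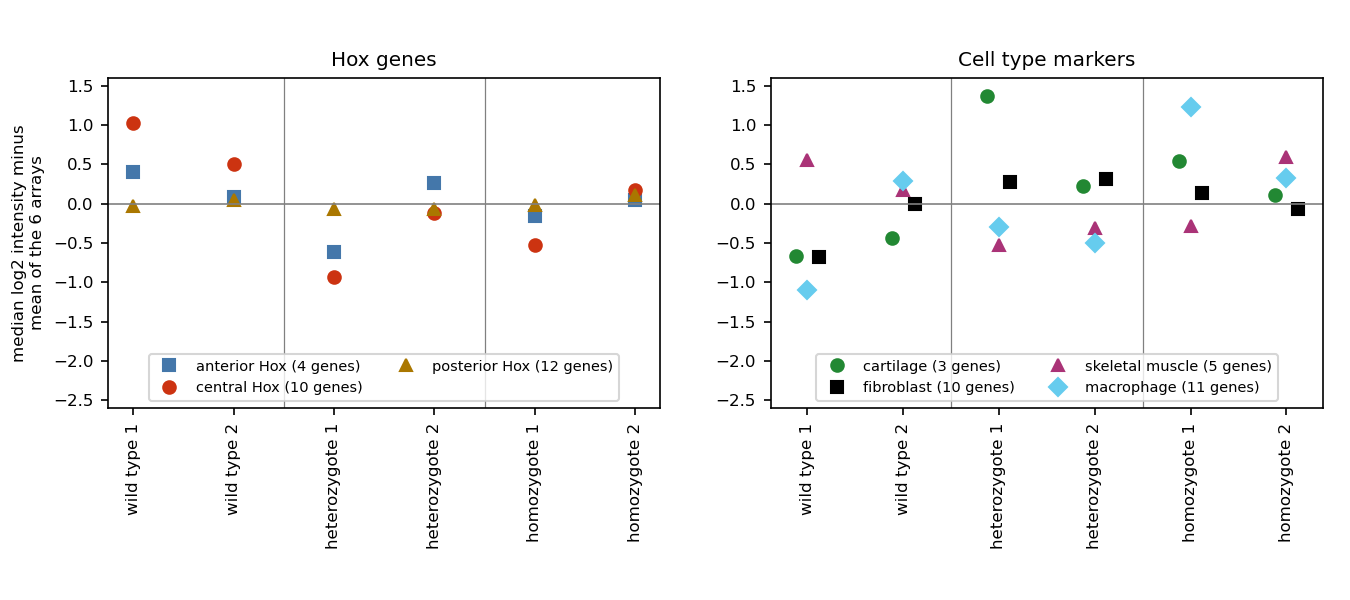
Points are medians over the tested genes of a list of log2 intensity minus the mean of the 6 arrays, for Hox genes by position (left) and for markers of 4 cell types (right), by array. The median of central Hox genes runs from 1.03 in wild type 1 to -0.93 in heterozygote 1, and that of posterior Hox genes stays near 0. The cartilage median runs from -0.66 to 1.37 in the reverse order of arrays. The skeletal muscle median is, like that of central Hox genes, lowest in heterozygote 1, at -0.53.

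Proteins that act with Hox factors on DNA, the PBX, MEIS and PKNOX (PREP) families, had 7 of 8 measured genes above the filter. Their median difference from wild type was 0.21 in heterozygotes and -0.04 in homozygotes, and limma called 0 of 7 (0 also at an unadjusted p under 0.05). In the main comparison Pknox2 differed by 0.51 and Meis1 by -0.37. Regulators of Hox genes, mostly polycomb and trithorax proteins, had 11 of 16 measured genes above the filter, with a median of 0.12 in heterozygotes and 0.10 in homozygotes and 0 called by limma (0 at the unadjusted level). Suz12, a polycomb subunit, differed by 0.46 and Ring1 by 0.24 in the main comparison. The upstream factors Cdx1, Cdx2 and Cdx4 lay below the filter.

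Retinoic acid activates many Hox genes. Of its synthesis, breakdown, binding and receptor genes, 7 of 11 measured were tested, and the breakdown genes Cyp26a1 and Cyp26b1 lay below the filter. The 7 had medians of -0.19 in both genotypes, with 0 called by limma. At the unadjusted level 1 was lower in heterozygotes, Aldh1a1, against 1.95% of tested genes, and 1 higher in homozygotes, Crabp1, against 1.66%. Aldh1a1, a retinaldehyde dehydrogenase, differed by 0.68 and Crabp1, a retinoic acid binding protein, by 0.85 in the main comparison. Rarb, a receptor that retinoic acid itself induces, was at 5.73 and 5.60 in the wild type, 4.12 and 5.20 in the heterozygotes, and 5.30 and 4.47 in homozygotes (named after its values were seen). Its wild-type arrays lay above the other 4, as did those of 0 other tested genes of the list, and 1 of 7 is near the 7.83% of all tested genes.

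Limb genes give another reading of position. Of 16 measured, 13 were tested, and the median difference from wild type was 0.45 in heterozygotes and 0.30 in homozygotes, with 0 called by limma. At the unadjusted level Tbx5 and Msx2 were lower (1.95% of tested genes) and Lhx2 higher (2.37%) in heterozygotes, and Msx2 was lower (1.62%) in homozygotes. Tbx5, of the forelimb, was at 5.80 and 6.11 in the wild type, 4.59 and 5.11 in the heterozygotes, and 6.03 and 6.53 in homozygotes. Tbx4, of the hindlimb, was at 6.10 and 6.94, at 7.56 and 7.88, and at 8.34 and 6.95 (named after its values were seen). Both heterozygote arrays were lowest for Tbx5, and both wild-type arrays lowest for Tbx4, with wild type 2 and homozygote 2 nearly equal. Msx2, a homeobox gene of limb and skin, was highest in the wild type, at 7.38 and 6.69 against 6.01 at most. The list's median relative to the 6 arrays was -0.73 in wild type 1 and between -0.19 and 0.25 elsewhere. Of genes for trunk and face position, 9 of 17 measured were tested, with medians of 0.0042 in heterozygotes and 0.04 in homozygotes, among them Foxd1 at -1.57 and Evx2, next to cluster d, at 0.66 in the main comparison, with 0 called by limma. At the unadjusted level 1 of the 9 was higher in heterozygotes (2.37% of tested genes) and 1 lower in homozygotes (1.62%).

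Markers of cell types were read beside these values, since in bulk cultures fewer cells of a kind and less RNA per cell cannot be told apart. All 10 fibroblast markers were tested, and Vim and Fn1 had ranges of 0.13 and 0.15 log2 units over the 6 arrays. The median of the list was -0.67 in wild type 1 and between -0.07 and 0.31 elsewhere, and its summed level (log2) was 15.52 and 15.91 in the wild type, 16.07 and 16.08 in the heterozygotes, and 16.01 and 15.86 in homozygotes. Pdgfra ranged from 6.80 in wild type 1 to 10.44 in homozygote 1.

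Cartilage markers had 3 of 7 measured genes above the filter (Sox9, Col2a1 and Comp). Their median ran -0.66 and -0.44 in the wild type, 1.37 and 0.22 in the heterozygotes, and 0.54 and 0.11 in homozygotes, the reverse order of arrays to the central Hox genes. The summed level (log2) of the list was 7.76 and 8.20, 9.34 and 8.69, and 8.95 and 8.14. Skeletal muscle markers, 5 of 9 tested with Myod1, Myog and Myf5 below the filter, had medians of 0.55 and 0.17, -0.53 and -0.31, and -0.28 and 0.59, with summed levels of 11.66 and 9.58, 8.35 and 9.04, and 8.25 and 10.16. Endothelium markers, 3 of 7 tested, had medians of 0.88 and 0.15, -0.72 and -0.43, and -0.23 and 0.68. Epithelium markers, 3 of 8 tested, had 0.46 and 0.18, -0.62 and -0.01, and 0.24 and -0.20. Like the central Hox genes, the medians of muscle, endothelium and epithelium were lowest in heterozygote 1. The part of these lists in the Hox values was not tested.

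Macrophage markers, 11 of 12 tested, had a median of -1.10 in wild type 1, their lowest array, and of 1.23 in homozygote 1, their highest, with summed levels of 11.45 and 12.75, 12.38 and 12.19, and 13.82 and 12.80, and 11 of 11 were higher in homozygotes in the main comparison (limma called 0, and 6 were higher at the unadjusted level, against 1.1% of tested genes). Neuron markers, 4 of 9 tested, had medians of 0.59 and 0.32 in the wild type, -0.09 and 0.02 in the heterozygotes, and -0.30 and -0.40 in homozygotes, and their summed level ranged from 9.26 to 11.15. Glia and crest (3 of 5 tested), endothelium (3 of 7) and epithelium (3 of 8) had summed levels of 7.14 to 10.22, 6.65 to 7.72 and 7.12 to 7.92. Of markers of kidney and gonad mesoderm, Wt1 and Osr1 were tested, with a summed level of 7.91 to 8.89. All 3 erythroid and all 5 liver markers measured lay below the filter. The part of these cells in the Hox values was not tested either.

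Median deposited intensities of the 6 arrays were 21.9 to 27.3. Bcar1 was at 9.37 in wild type 1 and between 8.08 and 8.43 on the other 5 arrays, wild type 2 among them, and the place of its probe set in the gene was not known, so it checks nothing about the deletion. Xist was high in wild type 1 and both heterozygotes (8.82 to 10.29) and low in wild type 2 and both homozygotes (3.70 to 5.31). Eif2s3y, a gene of the Y chromosome, was at 3.61 and 8.37 in the wild type. It was at 1.24 and 1.70 in the heterozygotes, and at 8.76 and 8.61 in homozygotes. Sex and genotype thus cannot be told apart between heterozygotes and homozygotes. The wild-type arrays differed in both genes, so sex was also unbalanced in both comparisons with wild type. The part of sex in the Hox values was not tested.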

How the data were processed

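Each of the 6 arrays measured total RNA (2 µg, as biotin-labelled cRNA) of a fibroblast culture from an embryo. The authors deposited 1 intensity per probe set and array, per the file headers, and the method of summary and scaling is one not given in the sources used here. From these values log2(intensity + 1.78) was computed, the pseudocount being the 10th percentile of all intensities, followed by quantile normalization. Differences are on this scale and understate those of dim genes. Of 45037 probe sets that were no controls, the 22519 in the upper 50% by mean were fitted with limma 3.58.1 in R 4.3.3 (3 genotype means, 6 arrays, Benjamini-Hochberg threshold 0.05, 3 residual degrees of freedom). Probe sets were named from the platform annotation, with symbols updated by Entrez identifier through a GRCm38.p6 table: 34945 had 1 symbol, 932 several and 9160 none. A gene took its probe set of highest mean.

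The members and lists were chosen with earlier results of these data known. Values by array are given for the 3 genes of widest range in each cluster, the 8 of largest difference in the main comparison, and genes with both arrays of a genotype beyond the other 4; other members appear by values or range. From each other list the 2 genes of smallest p were named. The fit was tested on simulated data with the main comparison only (homozygotes against the rest, 22519 probe sets). It called 3 of 50 changes of 1 log2 unit, 43 of 50 of 2, 47 of 50 of 3 and 50 of 50 of 5. Over that whole run there were 9 false calls. Comparisons between single genotypes were not simulated. Alternatives changed the normalization, pseudocount, filter, array weights, probe set rule, replicate block and single arrays. The number of arrays limits the precision.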

Additional observations from a re-analysis of the deposited data

Results flagged for a closer look

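Signal was seen in probe sets that enter no comparison above, because the annotation gives them 2 genes, Hoxd4 and Hoxd3. On the first, log2 intensities were 4.71 and 4.69 in the wild type, 2.92 and 4.25 in the heterozygotes, and 5.38 and 5.15 in homozygotes, with a mean difference of homozygotes from the other 4 arrays of 1.12. On the second they were 4.28 and 4.53, 1.42 and 3.39, and 4.67 and 4.70, with a difference of 1.28. Both homozygote arrays were the highest and both heterozygote arrays the lowest on both probe sets. Homozygotes differed from wild type by 0.56 and 0.28 and from heterozygotes by 1.68 and 2.28, so most of the printed difference lay against the heterozygotes. Both probe sets lay below the intensity filter and were not tested.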

How the results depend on the processing

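No alternative called a Hox probe set. Over all probe sets, leaving out 1 array gave 0 to 2 calls for homozygotes against the other genotypes, 0 to 3 for homozygotes against heterozygotes and 0 to 3 for heterozygotes against wild type. The array left alone in its genotype is then assumed to vary like the others. The central medians against wild type stayed negative, at -1.68 to -0.99 in heterozygotes and -1.35 to -0.56 in homozygotes with 1 array left out. The posterior median of the main comparison (0.20) was 0.13 with a pseudocount of 32, 0.14 with no filter and 0.27 with the upper 25% of probe sets, and 0.034 to 0.24 with 1 array left out. Against wild type it was 0.30 in homozygotes and 0.090 in heterozygotes with the upper 25%, 0.053 in heterozygotes with no further normalization, and 0.0048 to 0.18 (homozygotes) and -0.28 to -0.10 (heterozygotes) with 1 array left out. The anterior median of heterozygotes was -1.01 to 0.057 in the same way. The count of 11 genes with both wild-type arrays highest was 3 of the 8 Hox genes left in the upper 25%, and 11 to 14 with 1 array left out. Fewer arrays make that rule easier to meet, so the range of 11 to 14 cannot show that the count is stable. Hoxb4 turned from -0.78 to 0.0048 in the main comparison without homozygote 1 (-1.56 without homozygote 2). A pseudocount of 32 gave -0.83 for Hoxc4 and -1.02 for Hoxb9 in heterozygotes, -0.60 for Hoxc4 and -0.62 for Hoxb4 in homozygotes, all against wild type, and 0.22 for Hoxd9 in the main comparison. Averaging the probe sets of a gene gave -0.38 for Hoxc5, -0.37 for Hoxb4 and 0.35 for Hoxd8 there. The cause of these shifts was not tested. The medians against wild type and this count were put through the alternatives after seeing the data.

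Over all tested probe sets, same-numbered arrays did not deviate together (correlations of deviations -0.36, -0.14 and -0.14). These values cannot show whether the arrays were handled in pairs. Among central Hox genes, array 2 was above array 1 for 10 of 10 in heterozygotes and 9 of 10 in homozygotes. In the wild type array 1 was above array 2 for 8 of 10. A batch shared by same-numbered arrays was not tested. With the replicate block 0 probe sets were called in each comparison, and 790 in place of 1185 reached an unadjusted p under 0.05 between heterozygotes and wild type, 14 in place of 13 of them Hox probe sets. With 2 arrays per genotype, changes near 1 log2 unit were rarely called in simulated data.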

Other observations

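Other transcripts of the Hox clusters were read outside the comparisons. A probe set annotated to both Hoxb8 and Hoxb7, trunk genes of cluster b, was at 7.25 and 6.69 in the wild type, 4.12 and 5.76 in the heterozygotes, and 5.20 and 6.16 in homozygotes, with both wild-type arrays above the other 4. The antisense transcript Hoxb5os was at 7.86 and 8.81, 7.18 and 8.40, and 7.89 and 8.27, with overlapping genotypes. Hoxa11os, antisense to Hoxa11, was at 6.35 and 6.96, 7.15 and 6.34, and 6.41 and 7.27, and its genotypes overlapped as well.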
